A study of Mus musculus with 6 samples.

Results

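The genes of MHC class II antigen presentation were followed across liver F4/80-positive cells of 3 WT and 3 Lpcat3 KOMac mice. They comprised 10 genes, listed by name, of the 49315 genes in each count table: the classical chains *H2-Aa*, *H2-Ab1* and *H2-Eb1*, the invariant chain *Cd74*, the peptide exchange chains *H2-DMa*, *H2-DMb1*, *H2-Oa* and *H2-Ob*, the transactivator *Ciita* and the co-stimulatory ligand *Cd86*. All 10 passed the filter on low counts and were among the 16134 genes tested. WT mice were Lpcat3 fl/fl with 2 wild-type LysM alleles, and Lpcat3 KOMac mice were Lpcat3 fl/fl littermates with 1 LysM-Cre allele, so the controls carried the floxed gene too. Both genotypes were C57BL/6N mice that started a diet of 60% fat as young adults and received it for 16 weeks. LysM is *Lyz2*, and its promoter drives Cre in myeloid cells in general, not only in Kupffer cells. Cells were taken from the supernatant of a collagenase digest with anti-F4/80 beads, with 1 library per mouse. The labels do not give the sex of these 6 mice.

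MHC class II molecules are pairs of an alpha and a beta chain that show peptides from engulfed material to CD4+ T cells. The invariant chain guides new pairs to the endosome, where H2-DM exchanges its last fragment for antigenic peptides and H2-O restrains H2-DM. Ciita binds no DNA itself and is recruited to class II promoters by factors sitting on the X and Y boxes, and CD86 gives the second signal that a T cell needs. Kupffer cells, which are macrophages resident in the liver sinusoids, present antigen by this route, as do dendritic cells, B cells and macrophages derived from monocytes.

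Total counts per library lay between 44954224 and 71392812. *Lpcat3*, the deleted gene, stood at 85.0, 66.2 and 61.2 CPM (counts of the gene per 1000000 counts of the library, scaled with TMM factors) in WT mice 1, 2 and 3, and at 19.5, 33.3 and 19.4 CPM in Lpcat3 KOMac mice 1, 2 and 3, so every Lpcat3 KOMac library lay below every WT library with part of the transcript left. The summed level of 5 hepatocyte transcripts ran from 1676 to 18589 CPM and was highest in WT mouse 1 and Lpcat3 KOMac mouse 2. The 8 Kupffer cell markers were all detected, with *Cd5l* between 8313 and 11780 CPM and *Adgre1*, which encodes F4/80, between 1984 and 3050 CPM. P-values weigh the difference between genotypes against the spread among these 6 libraries.

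Because Ciita reaches its targets through the X and Y boxes, the stretches that hold these letters are shown for the class II genes in which they were found upstream of the start. The RefSeq promoter table (GRCm38.p6, 250 bases before to 50 after each start) had entries for 6 of the 10 genes: *H2-Aa*, *H2-Eb1*, *H2-DMa*, *H2-DMb1*, *H2-Oa* and *H2-Ob*. Both strands were searched for GNAAC, a core of the X box, followed after 20 to 35 bases by the Y box ATTGG, letters chosen with these sequences in view. On the transcript strand the arrangement was present in 5 of the 6 genes, all but *H2-DMa*, and in 1.33% of all 32851 promoter entries. In *H2-DMb1* the letters lie 28 bases apart. The other 4 stretches are printed 5′ to 3′ on the transcript strand, with the X core and the Y box in capitals.
*H2-Aa* (chr17:34287863-34287912, minus strand): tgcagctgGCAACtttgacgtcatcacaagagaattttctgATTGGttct
*H2-Eb1* (chr17:34305768-34305816, plus strand): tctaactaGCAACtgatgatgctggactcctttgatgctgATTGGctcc
*H2-Oa* (chr17:34092295-34092344, plus strand): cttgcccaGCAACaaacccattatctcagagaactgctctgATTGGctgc
*H2-Ob* (chr17:34238810-34238856, plus strand): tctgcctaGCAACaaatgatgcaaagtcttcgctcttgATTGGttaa
These stretches begin 84 to 99 bases before the RefSeq start, and 25 to 28 bases separate the marked letters. A match is a description of the letters and not of binding. Genes that carry the same arrangement lay at very different levels: over the 6 libraries *H2-Eb1* averaged 1035 CPM per kilobase of exon and *H2-Oa* 0.377.

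The classical chains and the invariant chain were among the abundant transcripts of these cells, and they differed up to 4.88-fold between mice without following the genotype. *Cd74* (ENSMUSG00000024610, chromosome 18, 60803848 to 60812646) encodes the invariant chain. Its level was 3664, 2783 and 6627 CPM in WT mice 1, 2 and 3 and 3748, 4832 and 1816 CPM in Lpcat3 KOMac mice 1, 2 and 3. The highest library was thus a WT library and the lowest a Lpcat3 KOMac library, while the other libraries of the genotypes interleaved. The mean was 4358 ± 2014 CPM in WT mice and 3466 ± 1528 CPM in Lpcat3 KOMac mice (SD, n = 3 each), and the log2 fold change, Lpcat3 KOMac over WT, was -0.33 (SE 0.47, 95% interval -1.49 to 0.83, edgeR adjusted p = 1). An exact two-sided permutation test, which cannot go below p = 0.1 with 3 mice against 3, gave p = 0.6.

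*H2-Ab1* (ENSMUSG00000073421, chromosome 17, 34263209 to 34269418) encodes the beta chain of I-A. It stood at 1288, 787 and 2562 CPM in WT mice 1, 2 and 3 and at 1288, 1931 and 543 CPM in Lpcat3 KOMac mice 1, 2 and 3. *H2-Aa* (ENSMUSG00000036594, chromosome 17, 34282744 to 34287827), the alpha chain of I-A, had 1191, 779 and 2384 CPM in WT mice and 1277, 1855 and 547 CPM in Lpcat3 KOMac mice. For both chains mouse 1 of each genotype lay in the middle at nearly the same level, WT mouse 3 was highest and Lpcat3 KOMac mouse 3 lowest. *H2-Eb1* (ENSMUSG00000060586, chromosome 17, 34305877 to 34316199), which encodes the beta chain of I-E, had the widest range of all members, with 1067, 608 and 2314 CPM in WT mice and 1141, 1750 and 475 CPM in Lpcat3 KOMac mice. The log2 fold changes of *H2-Ab1*, *H2-Aa* and *H2-Eb1* were -0.30 (SE 0.61), -0.24 (SE 0.59) and -0.24 (SE 0.66). Their 95% intervals spanned -1.83 to 1.22, -1.71 to 1.22 and -1.89 to 1.40, so that a 2-fold fall and a 2-fold rise both lay within them. *H2-Ea*, the partner of *H2-Eb1*, is listed in the annotation of these files as a pseudogene, *H2-Ea-ps*, and had 0 counts in each of the 6 libraries, which allows a level of up to 0.0462 to 0.0656 CPM (3 counts, counting error only). C57BL/6 mice are known to lack a working *H2-Ea* gene, and *H2-Eb1* was here read at a high level without detectable transcript of its partner.

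**Figure D1:**
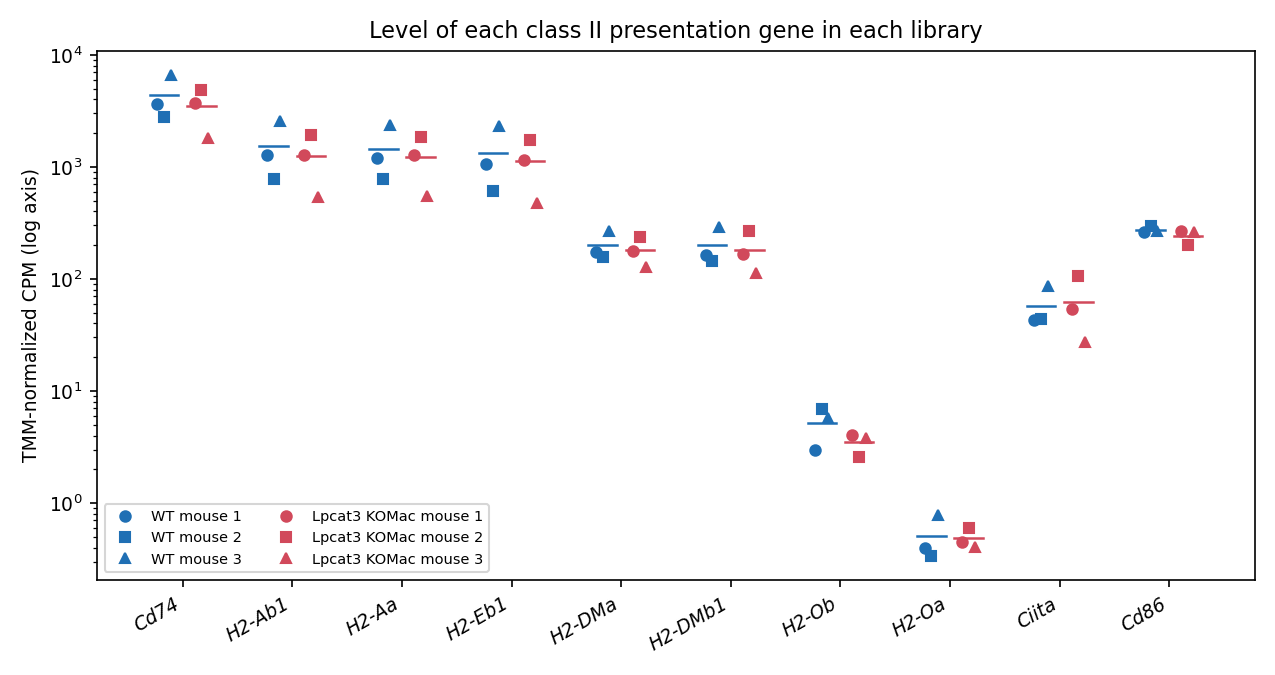
Level of each of the 10 genes in each library, in TMM-normalized CPM on a log axis, with WT and Lpcat3 KOMac mice side by side; points are single libraries and horizontal bars are group means (n = 3). In every panel the 2 genotypes overlap, from *Cd74* at 1816 to 6627 CPM down to *H2-Oa* at 0.339 to 0.787 CPM.

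The chains of H2-DM, which load peptides, followed the same order of mice over a narrower range. *H2-DMa* (ENSMUSG00000037649, chromosome 17, 34135182 to 34139101) had 173, 158 and 269 CPM in WT mice 1, 2 and 3 and 176, 237 and 127 CPM in Lpcat3 KOMac mice 1, 2 and 3. *H2-DMb1* (ENSMUSG00000079547, chromosome 17, 34153072 to 34160230) had 163, 143 and 291 CPM in WT mice and 166, 268 and 112 CPM in Lpcat3 KOMac mice. The highest library exceeded the lowest 2.12-fold for *H2-DMa* and 2.59-fold for *H2-DMb1*, against 4.36-fold for *H2-Aa* and 4.71-fold for *H2-Ab1*. Their log2 fold changes were -0.15 (SE 0.30, 95% interval -0.90 to 0.59) and -0.13 (SE 0.41, 95% interval -1.15 to 0.89), with edgeR adjusted p = 1 for both. Of the 50-base stretches of *H2-DMb1* exons, 22.7% also occur in the neighbouring gene *H2-DMb2*, so reads could be divided between them, while *H2-DMb2* itself had only 7.32 to 13.3 CPM.

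The chains of H2-O, which restrains H2-DM, were far lower and did not move with each other. *H2-Oa* (ENSMUSG00000024334, chromosome 17, 34092340 to 34095234) rested on 26, 17 and 36 reads in WT mice 1, 2 and 3 and on 26, 31 and 19 reads in Lpcat3 KOMac mice 1, 2 and 3, or 0.339 to 0.787 CPM. *H2-Ob* (ENSMUSG00000041538, chromosome 17, 34238903 to 34245907) had 2.97, 6.94 and 5.68 CPM in WT mice and 4.04, 2.58 and 3.82 CPM in Lpcat3 KOMac mice. *H2-Ob* was thus highest in WT mouse 2, where *H2-Oa* was lowest, and lowest in Lpcat3 KOMac mouse 2, where *H2-Oa* was second highest. *H2-Ob* had the largest fitted difference of the 10 genes, a log2 fold change of -0.58 (SE 0.37, 95% interval -1.49 to 0.34, edgeR adjusted p = 1), yet WT mouse 1 lay below 2 of the 3 Lpcat3 KOMac libraries. For *H2-Oa* the log2 fold change was -0.07 (SE 0.41), and its sign changed with library totals alone (0.011) but not with DESeq2 size factors (-0.05). Part of the *H2-Oa* exons, 200 bases, overlaps *BC051537* on the opposite strand, which had 0 counts in every library.

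*Ciita* (ENSMUSG00000022504, chromosome 16, 10488178 to 10527564), the transactivator of the class II genes, stood at 42.7, 43.5 and 85.9 CPM in WT mice 1, 2 and 3 and at 54.1, 106 and 27.6 CPM in Lpcat3 KOMac mice 1, 2 and 3. WT mouse 3 and Lpcat3 KOMac mouse 2 were the highest libraries here too, in the opposite order, and Lpcat3 KOMac mouse 3 was lowest, as for the classical chains. The means were 57.4 ± 24.7 CPM in WT mice and 62.4 ± 39.7 CPM in Lpcat3 KOMac mice (SD, n = 3 each), with a log2 fold change of 0.12 (SE 0.55, 95% interval -1.26 to 1.51, edgeR adjusted p = 1). *Ciita* was the member with a positive fitted value, and 111 of its exonic bases overlap *Dexi* on the opposite strand, a gene with at most 783 counts in any library, so a small part of its reads is uncertain.

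*Cd86* (ENSMUSG00000022901, chromosome 16, 36603869 to 36666081), the ligand of CD28 and CTLA-4, was the steadiest of the 10 genes. It had 260, 298 and 269 CPM in WT mice 1, 2 and 3 and 265, 201 and 261 CPM in Lpcat3 KOMac mice 1, 2 and 3, a 1.48-fold range. Without Lpcat3 KOMac mouse 2 the 5 remaining libraries lay between 260 and 298 CPM. The log2 fold change was -0.18 (SE 0.13, 95% interval -0.51 to 0.15, edgeR adjusted p = 1), which places a 2-fold change in either direction outside the interval. An exact two-sided permutation test gave p = 0.3 for *Cd86* and also p = 0.3 for *H2-Ob*.

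Between genotypes, 0 of the 10 genes were called at an adjusted p under 0.05, where 0.00% of the 16134 tested genes were called by edgeR. The deleted gene *Lpcat3* was thus not called in this fit either, although its libraries did not overlap between genotypes. The paper counted *Lpcat3* among its differentially expressed genes. A missing call here is therefore no evidence of equal levels. At an unadjusted p under 0.05 the count was again 0 of 10, against 2.64% of all tested genes, and the smallest unadjusted p of a member was 0.172, for *H2-Ob*. DESeq2 called 15 genes among all tested and 0 of the 10, of which *H2-Oa* received no adjusted p. In 0 of the 10 genes did the 3 WT libraries lie apart from the 3 Lpcat3 KOMac libraries, against 7.49% of all tested genes. The fitted value was below 0 for 9 of the 10, where 59.9% of all tested genes were below 0, and the median log2 fold change was -0.21 beside -0.04 over all tested genes. The members share the same 6 mice, and 7 of them were highest in WT mouse 3 and 7 lowest in Lpcat3 KOMac mouse 3, so their common sign turned on these libraries: without WT mouse 3 the median was 0.26, without Lpcat3 KOMac mouse 3 it was 0.09 and without Lpcat3 KOMac mouse 2 it was -0.49.

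**Figure D2:**
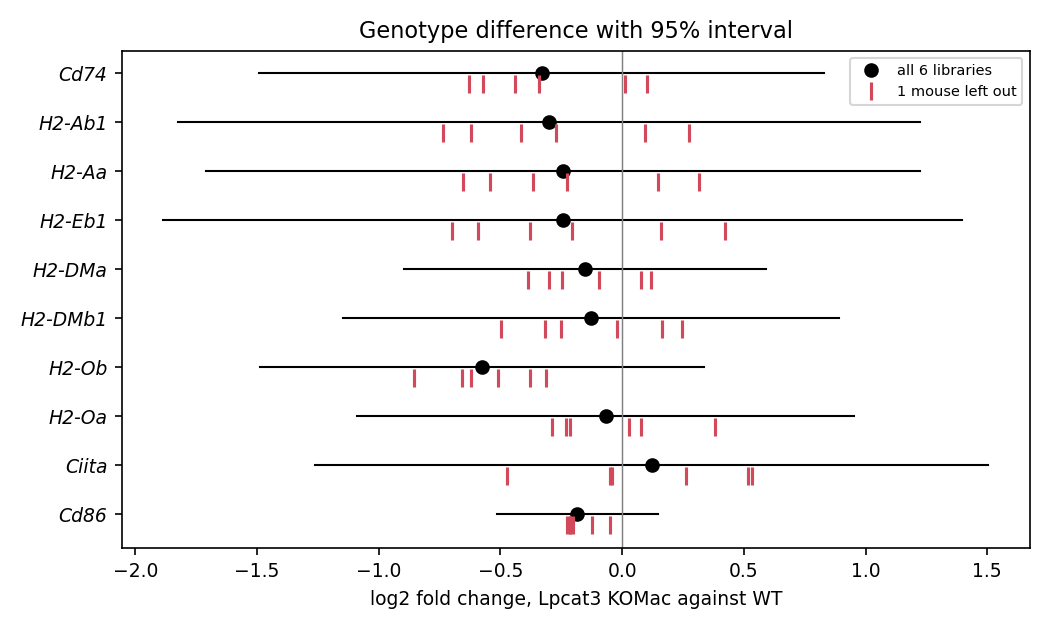
Log2 fold change of each of the 10 genes, Lpcat3 KOMac over WT, with its 95% interval from edgeR (n = 3 per genotype); the vertical line marks 0. All 10 intervals include 0, the narrowest that of *Cd86* (-0.51 to 0.15) and the widest that of *H2-Eb1* (-1.89 to 1.40).

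Variation between mice, rather than between genotypes, made up most of the spread of these genes. The genotype took 8.68% of the variance of log2 CPM for *Cd74*, 4.41% for *H2-Ab1*, 3.25% for *H2-Aa*, 1.93% for *H2-Eb1* and 31.6% for *Cd86*. In 8 of the 10 genes WT mouse 3 and Lpcat3 KOMac mouse 2 were the highest libraries, an order noticed in these data, which 5.22% of all tested genes had; *H2-Ob* and *Cd86* were the exceptions. A range of at least 3-fold between the highest and lowest library was seen for 5 genes, *Cd74*, *H2-Aa*, *H2-Ab1*, *H2-Eb1* and *Ciita*, against 23.0% of all tested genes and 7.65% of the 2053 tested genes with a mean of at least 100 CPM. The summed level of *Cd74*, *H2-Aa*, *H2-Ab1* and *H2-Eb1* was 7210, 4958 and 13887 CPM in WT mice 1, 2 and 3 and 7454, 10369 and 3381 CPM in Lpcat3 KOMac mice 1, 2 and 3, a 4.11-fold range. In RNA from a mixed isolate, fewer cells of a type and less RNA per cell cannot be told apart.

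**Figure D3:**
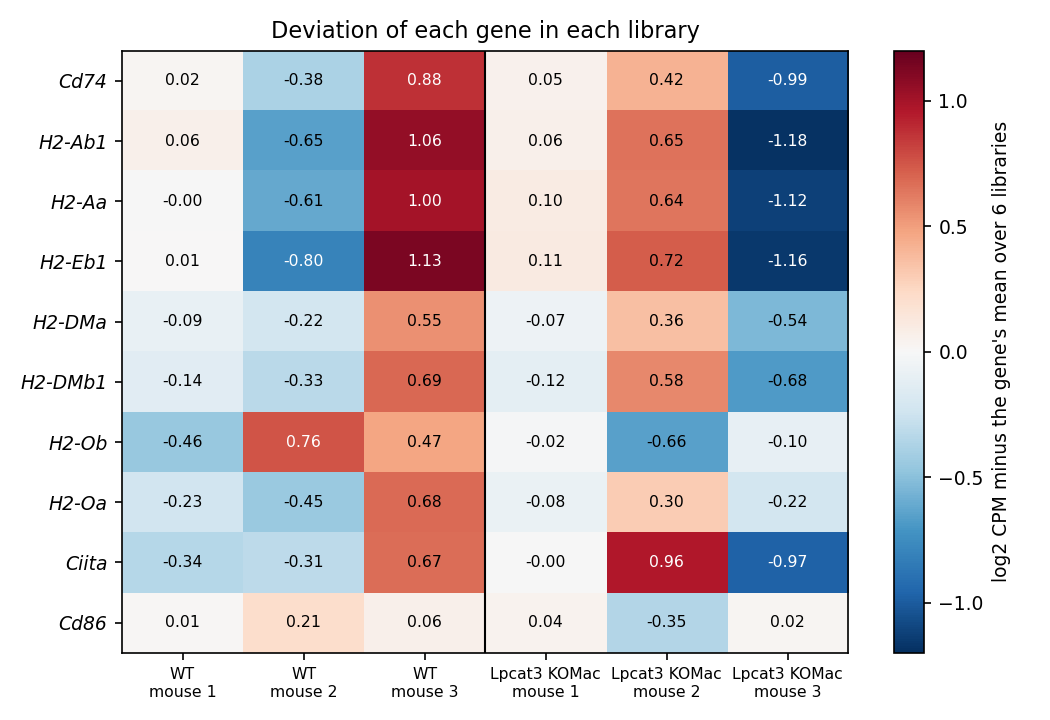
Deviation of each gene from its own mean over the 6 libraries, as a colour scale and printed value in log2 CPM, with genes in rows and libraries in columns. WT mouse 3 and Lpcat3 KOMac mouse 2 are both above the mean for 8 genes, WT mouse 2 and Lpcat3 KOMac mouse 3 are both below it for the same 8, and *H2-Ob* and *Cd86* depart from this order.

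Ratios within a library showed how closely the genes kept step. Per kilobase of exon, *H2-Aa* stood at 0.808 to 0.879 of *H2-Ab1* in every library, a 1.09-fold range in chains that each varied over 4-fold. *H2-Eb1* stood at 1.07 to 1.25 times *H2-Ab1*, and *Cd74* at 2.91 to 4.11 times *H2-Ab1*, with the highest *Cd74* ratios, 4.11 and 3.88, in WT mouse 2 and Lpcat3 KOMac mouse 3, where class II was lowest. The chains of H2-DM kept a ratio of 0.798 to 1.02 to each other, so their order was not the same in every library, while *H2-DMa* relative to *H2-Ab1* varied 2.22-fold. *H2-Ob* over *H2-Oa* ran from 1.80 to 8.53, and *Cd86* over *H2-Ab1* from 0.0467 to 0.215, highest where class II was lowest. Between genotypes the 10 ratios had exact two-sided permutation p of 0.2 to 0.9 (adjusted p 0.857 to 0.900), in a design whose smallest possible p is 0.1 and which cannot reach a threshold of 0.05.

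By mean level per kilobase over the 6 libraries the order was *Cd74* at 2774 CPM per kilobase, *H2-Eb1* at 1035, *H2-Ab1* at 855, *H2-Aa* at 714, *H2-DMb1* at 128, *H2-DMa* at 116, *Cd86* at 70.8, *Ciita* at 11.4, *H2-Ob* at 1.38 and *H2-Oa* at 0.377. Of the neighbours in this order, *Cd74*, *H2-Eb1*, *H2-Ab1* and *H2-Aa* kept their places in each library, whereas *H2-DMb1* and *H2-DMa* changed places. *H2-DMa* exceeded *H2-Oa* 251- to 373-fold per kilobase, so transcript of the exchange factor far outweighed that of its inhibitor's alpha chain.

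The other genes of the pathway varied much less between mice than the class II chains. Of 39 listed names in 6 lists, chosen with earlier results of these data known, 38 were in the files and 36 were tested. Of these, 0 were called and 0 had an unadjusted p under 0.05, 9 were above 0 and 27 below, and the median log2 fold change was -0.09. Their median range between the highest and lowest library was 1.37-fold, beside 1.62-fold over all tested genes and 3.17-fold over the 10 members, and 3 of the 36, *Cd83*, *H2-Eb2* and *Pdcd1lg2*, reached 2-fold.

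**Figure D4:**
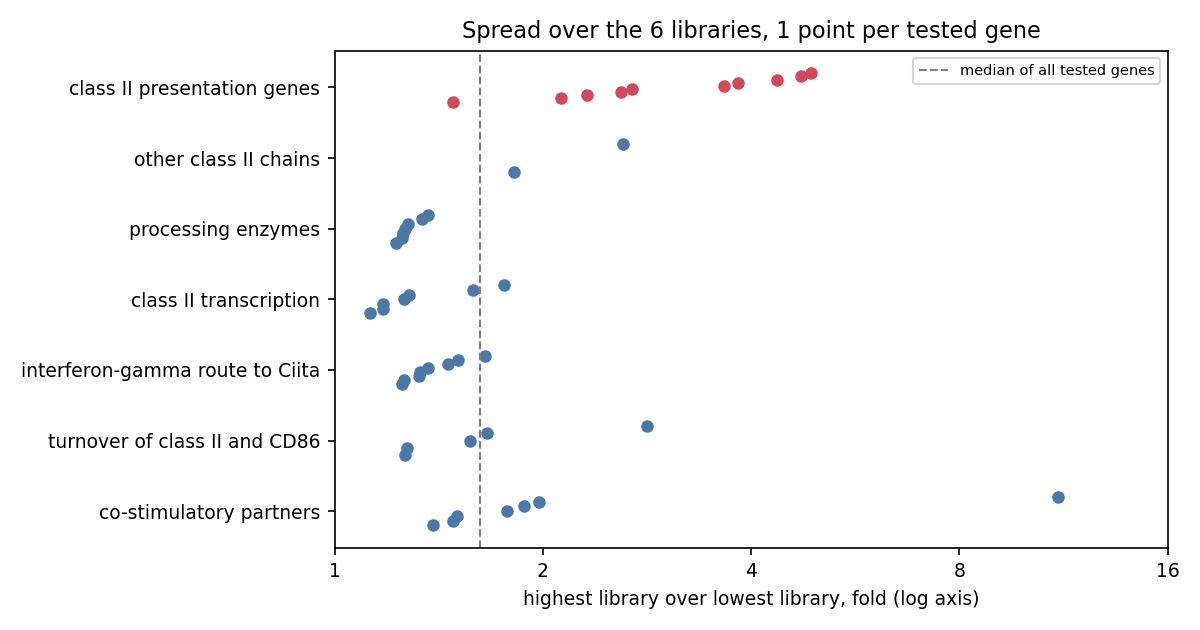
Ratio of the highest to the lowest of the 6 libraries for each gene, on a log axis, by gene list; points are single genes and the dashed line is the median of all tested genes, 1.62-fold. The classical chains and *Cd74* lie between 3.65- and 4.88-fold, while most processing enzymes and class II transcription factors lie below the line.

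Among the 7 processing enzymes, which cut or reduce antigen and the invariant chain in the endosome, the median log2 fold change was -0.11, with 1 above 0 and 6 below. *Ctss*, the cathepsin that makes the last cuts in the invariant chain, had 2732, 2968 and 3099 CPM in WT mice 1, 2 and 3 and 2569, 2627 and 2321 CPM in Lpcat3 KOMac mice 1, 2 and 3. *Ifi30*, the lysosomal thiol reductase GILT, had 739, 780 and 828 CPM in WT mice and 662, 705 and 736 CPM in Lpcat3 KOMac mice. For both enzymes all 3 WT libraries lay above all 3 Lpcat3 KOMac libraries, but the fitted differences were small, -0.23 (SE 0.10) and -0.16 (SE 0.09) on the log2 scale, and edgeR gave adjusted p = 1. A receptor chain for interleukin-10, *Il10rb*, was the third of the 36 genes whose genotypes did not overlap, with 247, 267 and 253 CPM in WT mice against 239, 210 and 245 CPM in Lpcat3 KOMac mice. These 3 of 36 were all lower in Lpcat3 KOMac mice, a pattern that 5.20% of all tested genes had, and 0 of 36 were higher, against 2.29%.

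The factors that bind the X and Y boxes (*Rfx5*, *Rfxap*, *Rfxank*, *Nfya*, *Nfyb*, *Nfyc* and *Creb1*) did not share the range of *Ciita*. Their median range between libraries was 1.26-fold against 3.83-fold for *Ciita*, their median log2 fold change was -0.04, and their summed level stayed between 239 and 267 CPM. The 8 genes of the interferon-gamma route to *Ciita* had a median range of 1.35-fold, with 3 above 0 and 5 below. Its receptor chain *Ifngr1* stood at 415, 563 and 403 CPM in WT mice 1, 2 and 3 and 341, 353 and 404 CPM in Lpcat3 KOMac mice 1, 2 and 3, a log2 fold change of -0.33 (SE 0.16).

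All 5 genes listed for the turnover of class II and CD86 were below 0, where 59.9% of all tested genes were below 0. The list includes the interleukin-10 receptor chains *Il10ra* and *Il10rb*. Its median log2 fold change was -0.14, and *March1* was at -0.01. *Cd83*, which protects both proteins from degradation, had 130, 168 and 224 CPM in WT mice 1, 2 and 3 and 163, 79.3 and 170 CPM in Lpcat3 KOMac mice 1, 2 and 3. Among the 7 co-stimulatory genes tested, 3 were above 0 and 4 below. *Cd80*, the other ligand of CD28, had 22.9, 28.8 and 26.8 CPM in WT mice and 23.2, 19.2 and 22.6 CPM in Lpcat3 KOMac mice, with Lpcat3 KOMac mouse 2 lowest as for *Cd86*. *Cd40*, the receptor for T cell help, had 22.6 to 43.3 CPM in WT mice and 22 to 31.3 CPM in Lpcat3 KOMac mice. *Pdcd1lg2*, which encodes the inhibitory ligand PD-L2, varied 11.1-fold, with the highest levels, 5.07 and 7.52 CPM, in mouse 3 of each genotype, an order unlike that of the class II genes.

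Outside the pathway, 8 genes were most like the common profile of *Cd74*, *H2-Aa*, *H2-Ab1* and *H2-Eb1*, by the smallest root mean square difference in centred log2 CPM over the 6 libraries, among 9062 tested genes with a mean of at least 10 CPM. They were *Gbp4* (difference 0.299), *Pclaf* (0.323), *Cep85* (0.356), *Pf4* (0.366), *Tspan13* (0.369), *Ly6a* (0.372), *Racgap1* (0.372) and *Stmn1* (0.373), beside a median of 0.739 over the genes compared. *Gbp4* had 17.6, 21.6 and 42.5 CPM in WT mice 1, 2 and 3 and 29.2, 42.0 and 10.9 CPM in Lpcat3 KOMac mice 1, 2 and 3. Among the members outside this profile, *H2-DMb1* (0.269) and *Ciita* (0.287) were nearer to it than any of these 8 genes, *H2-DMa* was at 0.364 and *H2-Oa* at 0.432. *Cd86* at 0.795 and *H2-Ob* at 0.916 were farther from it than the median gene.

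Markers of the other presenting cells were read beside these values. The summed level of 10 conventional dendritic cell markers was 185, 149 and 285 CPM in WT mice 1, 2 and 3 and 252, 278 and 230 CPM in Lpcat3 KOMac mice 1, 2 and 3, so that WT mouse 3 and Lpcat3 KOMac mouse 2 were highest, as for class II, while Lpcat3 KOMac mouse 3, the lowest in class II, was not low. *Itgax*, which encodes CD11c, had 37.8, 20.8 and 111 CPM in WT mice and 95, 117 and 92.9 CPM in Lpcat3 KOMac mice, and *Flt3* lay between 0.319 and 0.852 CPM. The order of the sum was not shared by all markers. *Dpp4* was highest in WT mouse 1 (73.5 CPM) and Lpcat3 KOMac mouse 2 (70.6 CPM), the libraries with the most hepatocyte transcript. In Lpcat3 KOMac mouse 2, *Clec9a* (23.9 CPM) and *Batf3* (39.5 CPM) were above WT mouse 1 alone. *Clec10a* was lowest there, and *Zbtb46* was second highest. The 7 monocyte markers summed to 166, 150 and 273 CPM in WT mice and 233, 213 and 161 CPM in Lpcat3 KOMac mice, and *Ccr2* had 31.2, 17.5 and 92.4 CPM against 71.6, 58.6 and 51.1 CPM. All 8 Kupffer cell markers were highest in WT mouse 2, where class II was low, and lowest in Lpcat3 KOMac mouse 2, where it was high. *Marco* had 1076, 3167 and 999 CPM in WT mice and 1352, 148 and 2854 CPM in Lpcat3 KOMac mice, and *Timd4* had 428, 937 and 344 CPM against 477, 123 and 645 CPM. Between the libraries with the highest and lowest class II levels, WT mouse 3 and Lpcat3 KOMac mouse 3, the markers divided: 5 were higher in Lpcat3 KOMac mouse 3, while *Cd5l*, *Clec4f* and *Folr2* were higher in WT mouse 3. Their summed level ran from 26537 to 37061 CPM in WT mice and from 19566 to 28904 CPM in Lpcat3 KOMac mice. All 8 had fitted values below 0, where 59.9% of all tested genes did. For 2 of them, *Clec4f* and *Folr2*, all Lpcat3 KOMac libraries lay below all WT libraries, against 5.20% of all tested genes (log2 fold change -0.44, SE 0.17, and -0.45, SE 0.16, with edgeR adjusted p = 1 for both). The part of these cells in the spread of the class II genes was not tested.

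The most abundant B cell markers, *Ighm* and *Cd79b*, differed in their order of libraries. *Ighm*, the heavy chain of IgM, had 16.6, 262 and 18.1 CPM in WT mice 1, 2 and 3 and 30.8, 22.1 and 125 CPM in Lpcat3 KOMac mice 1, 2 and 3, highest in the libraries with the lowest class II levels. *Cd79b*, a signalling chain of the B cell receptor, had 12.3, 10.3 and 21.3 CPM against 15.0, 16.4 and 14.8 CPM, with WT mouse 3 and Lpcat3 KOMac mouse 2 highest, as for class II. *Ms4a1* lay between 0.615 and 1.72 CPM, and *Fcrla* was lower in every Lpcat3 KOMac library, at 0.328 to 0.573 CPM against 0.874 to 0.978 CPM. *H2-Ob*, which B cells express strongly, was highest in WT mouse 2, the library with the most *Ighm*, but was 3.82 CPM in Lpcat3 KOMac mouse 3, which had the next most.

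Markers of neutrophils, T and NK cells and plasmacytoid dendritic cells were low apart from a few genes. Fitted values were above 0 for 3 of 4 neutrophil markers tested (median log2 fold change 0.90), 5 of 7 T and NK cell markers (0.59), 4 of 4 plasmacytoid dendritic cell markers (0.52) and 4 of 7 monocyte markers (0.36), where 6466 of the 16134 tested genes were above 0. All Lpcat3 KOMac libraries lay above all WT libraries, as in 2.29% of all tested genes, for *S100a8* (0.718 to 0.874 CPM in WT mice, 0.947 to 2.19 CPM in Lpcat3 KOMac mice), *Cd3d* (0.0769 to 0.153 against 0.224 to 0.255 CPM), *Klrb1c* (0.120 to 0.590 against 0.617 to 0.701 CPM) and *Chil3* (1.04 to 2.12 against 2.43 to 8.76 CPM). With edgeR adjusted p = 1, 0 of these genes were called. *Cd3d* rested on only 5, 5 and 7 reads in WT mice and 13, 12 and 12 reads in Lpcat3 KOMac mice. *Klrb1c* had 6 reads in WT mouse 2, so counting error limits both differences. Unadjusted p was under 0.05 with overlapping genotypes for *Clec10a*, on dendritic cells and macrophages, and for the endothelial receptor *Kdr*. Most of the neutrophil sum, 78.7 to 157 CPM, came from *Csf3r*, and most of the plasmacytoid sum, 48.2 to 77.0 CPM, from *Tcf4*, while T and NK cell markers summed to 4.10 to 6.01 CPM and sinusoidal endothelial markers to 1451 to 2065 CPM. The part of these cells in the class II levels was not tested either.

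Without WT mouse 1 and Lpcat3 KOMac mouse 2, the libraries with the most hepatocyte transcript, the median log2 fold change of the 10 genes was -0.67 and again 0 of the 10 were called.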

How the data were processed

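RNA of F4/80-positive liver cells was sequenced from poly-A selected libraries (NEBNext Ultra). The authors deposited raw read counts per gene and library, without normalization. The submitters' processing notes name Trimmomatic 0.36, STAR 2.5.2b, featureCounts of Subread 1.5.2 and GRCm38, while the strand setting and the handling of reads matching several places are not given in the sources used here. Of 49315 gene IDs, 49056 matched GENCODE M21, which gave symbols. Counts were scaled with TMM factors, filtered with edgeR's default (minimum count 10) and tested with the robust quasi-likelihood method of edgeR 4.0.16 in R 4.3.3, with genotype as the term and Benjamini-Hochberg adjustment over 16134 genes. The procedure was tested on simulated data with larger changes than those fitted for the 10 genes, which does not gauge its power for small differences. Ratios and levels between genes used the exon length in the tables. DESeq2 1.42.0 and limma 3.58.1 (voom), other scalings and filters, a hepatocyte covariate, a transcript length offset, a replicate block and leaving out libraries were alternatives. Leaving out the libraries richest in hepatocyte transcripts was chosen after seeing the data.

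The 10 genes and all lists were chosen with earlier results of these data known, so no list was tested. All 10 were named, with listed genes that had an unadjusted p under 0.05 or genotypes that did not overlap, examples among defining markers and short lists, and the 8 genes with the most similar profile. Other listed genes enter the counts and sums, and not all of their levels are reported here.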

Additional observations from a re-analysis of the deposited data

How the results depend on the processing

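0 of the 10 genes were called under any of the 17 alternatives, though DESeq2 gave no adjusted p for *H2-Oa*. Over all tested genes the count was 0 in 16 of them and 15 with DESeq2. Leaving out each mouse in turn gave 0 calls and a median log2 fold change of the 10 genes from -0.49 to 0.26, and -0.67 without both libraries rich in hepatocyte transcripts. Over the fits that left out a single mouse, the log2 fold change ranged from -0.63 to 0.10 for *Cd74* and -0.74 to 0.27 for *H2-Ab1*. In these fits it was -0.65 to 0.32 for *H2-Aa*, -0.70 to 0.42 for *H2-Eb1* and -0.39 to 0.12 for *H2-DMa*. It was -0.50 to 0.25 for *H2-DMb1*, -0.29 to 0.38 for *H2-Oa* and -0.47 to 0.53 for *Ciita*. It stayed below 0 for *H2-Ob* (-0.86 to -0.31) and *Cd86* (-0.23 to -0.05). Without both hepatocyte-rich libraries it was -0.76 for *Cd74*, -0.87 for *H2-Ab1*, -0.79 for *H2-Aa* and -0.85 for *H2-Eb1*, below these ranges. *H2-Oa* turned to 0.011 with library totals alone, 0.025 with limma-voom and 0.013 with the hepatocyte covariate, and *Ciita* to -0.66 without both hepatocyte-rich libraries. The cause was not tested. *H2-Ob* had an unadjusted edgeR p of 0.0202 without WT mouse 1 (edgeR adjusted p = 0.312, and up to 1 in other alternatives). In that fit 2028 of 16487 genes had an unadjusted p under 0.05. Without both hepatocyte-rich libraries the unadjusted edgeR p of *H2-Ob* was 0.0226 (edgeR adjusted p = 0.318). There 1767 of 16126 genes had an unadjusted p under 0.05. The log2 fold change of *H2-Ob* was -0.32 with the hepatocyte covariate.

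Same-numbered libraries did not deviate together on average (mean correlation -0.18, against 0.11 between different numbers). The highest correlation, 0.67, was between WT mouse 1 and Lpcat3 KOMac mouse 2, the libraries with the most hepatocyte transcript. The labels state no pairing, and so few libraries cannot exclude that same-numbered mice shared a day or litter. With the replicate number as a block 0 genes were called, the median of the 10 genes was -0.18 and *H2-Oa* was 0.0036.

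*H2-Oa* rested on 17 to 36 reads per library, so counting error limits its differences. For the abundant chains the spread between mice was the limit.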
